A study of Mus musculus with 12 samples.

Results

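The thioredoxin, peroxiredoxin and glutathione redox genes of the mouse oocyte were taken by gene symbol: thioredoxins with their reductases, thioredoxin-like proteins and Txnip, peroxiredoxins, superoxide dismutases and catalase, glutathione peroxidases, glutaredoxins, the enzymes that make or reduce glutathione, and glutathione S-transferases. The symbols matched 61 of 24255 rows of the expression table, and 49 of these reached 1 FPKM (fragments scaled for transcript length and library size, so that levels can be compared per length) in at least 1 library, of 11233 transcripts that did so. A further 11 were listed at 0 in all libraries and Cat, which encodes catalase, stayed above 0 but under 1 FPKM. The 49 transcripts had very unequal levels, with 8 at a mean of at least 100 FPKM, 29 between 1 and 100 and 12 under 1.

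Fully grown oocytes of 3-week-old C57BL/6 mice were compared in 4 groups of 3 libraries, each library made from 20 oocytes taken 46 h after 5 IU of PMSG (a gonadotropin that stimulates follicle growth). MUT females carried the D166G missense mutation of Dpagt1, induced by ENU, in every cell, and Dpagt1 encodes the enzyme that starts N-glycan synthesis in the endoplasmic reticulum. GcKO females were Dpagt1F/F Gdf9CRE/+, with Cre driven from the oocyte promoter Gdf9, and AmcKO females were Dpagt1F/F Amhr2CRE/+, with Cre active in granulosa cells. WT females are labelled only as WT, so it is not known whether they carried a floxed allele or Cre. No group is labelled as a control with a floxed allele or Cre without deletion. MUT and GcKO libraries carry the numbers 1 to 3 and WT and AmcKO libraries 4 to 6, so a difference between these number series cannot be told apart from genotype in the comparisons of MUT or GcKO with WT, nor in that of GcKO with AmcKO. No source says whether the libraries of a group came from separate females, and p-values therefore measure the spread between libraries, which may be technical.

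Cells keep protein thiols reduced and remove peroxides through linked thiol chains. NADPH feeds electrons to thioredoxin reductases and thioredoxins, which renew the peroxiredoxins, and in parallel to glutathione reductase and glutathione, which serve the glutathione peroxidases, glutaredoxins and glutathione S-transferases. A growing oocyte stores such transcripts and proteins, and the reduced glutathione laid down before ovulation is used when sperm chromatin is unpacked after fertilization.

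All 11 oocyte markers were detected, with Zp3 at 375 to 952 FPKM and Gdf9 at 1631 to 3404 FPKM. Their summed level lay between 11670 and 13090 FPKM in the WT libraries, between 6409 and 7981 in MUT, between 6160 and 8453 in GcKO, and between 9088 and 9609 in AmcKO. Of 13 granulosa cell markers, 3 were at 0 throughout, Amh and Foxl2 among them, and the summed level of the list lay between 17.6 and 23.1 FPKM in WT, between 15.5 and 27.4 in MUT, between 15.1 and 28.9 in GcKO, and between 11.5 and 22.7 in AmcKO. The markers Inha and Hsd17b1 were higher in MUT than in WT by limma (adjusted p = 0.0026 and 0.0118, all WT libraries at 0), and their part in the results below was not tested. Dpagt1 itself was listed at 0 in all WT libraries and reached 0.985 FPKM in its highest library, so its level cannot check the deletion, and a listed 0 may be a failed estimate.

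The FPKM values of a library did not add up to the same total in each group. WT libraries summed to between 1167362 and 1226005, MUT to between 589617 and 611597, GcKO to between 482314 and 684212, and AmcKO to between 883256 and 1107925. The summed level of the 49 redox transcripts moved with these totals. Taken singly, called or not, 21 of the 49 had a negative log2 fold change against WT in MUT and 25 in GcKO. Together the 49 transcripts reached between 10680 and 10860 FPKM in WT, between 5278 and 5351 in MUT, between 4692 and 6579 in GcKO, and between 8289 and 10510 in AmcKO. As a share of the library total, however, they made up between 0.877% and 0.915% in WT, between 0.874% and 0.895% in MUT, between 0.961% and 0.973% in GcKO, and between 0.923% and 0.949% in AmcKO.

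Glrx, Prdx1 and Prdx2 dominated the group. These 3 held between 76.4% and 78.0% of the redox FPKM in WT, between 60.5% and 62.3% in MUT, between 60.6% and 68.0% in GcKO, and between 72.2% and 77.0% in AmcKO. The thioredoxin system held between 3.36% and 3.85% in WT and a larger part in every library of MUT (between 9.54% and 10.2%) and GcKO (between 6.92% and 9.60%), while AmcKO, between 3.55% and 5.23%, overlapped WT. In summed level, the peroxiredoxins lay between 4201 and 4542 FPKM in WT and between 1648 and 1714 in MUT, whereas the thioredoxin system lay between 361 and 419 in WT and between 504 and 546 in MUT.

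**Figure D1:**
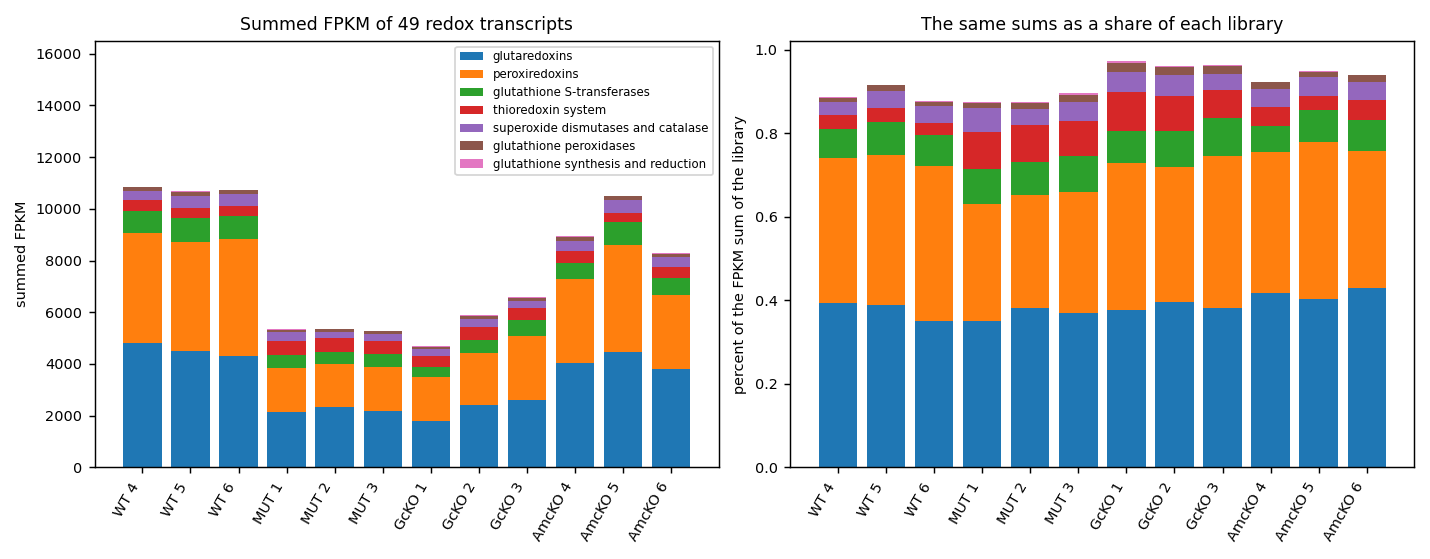
Stacked FPKM of the 49 redox transcripts by family in each of 12 libraries, as summed FPKM (left) and as a percent of the FPKM sum of the same library (right), both from 0. On the left the MUT and GcKO libraries lie between 4692 and 6579 FPKM, below WT at 10680 to 10860, while on the right all libraries lie between 0.874 and 0.973%.

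Transcripts were tested with limma on log2(FPKM + 1) across all 11233 transcripts and all 12 libraries, with p-values adjusted by Benjamini-Hochberg and a call below 0.05. Calls are given on the deposited FPKM scale unless another scaling is named, and every fold change below is on this log2 scale, which understates the change of transcripts near 0. Against WT, 10 of the 49 redox transcripts fell and 3 rose in MUT, where 11.3% of all transcripts fell and 9.46% rose. In GcKO 9 fell and 3 rose, against 11.4% and 8.71% of all transcripts. In AmcKO none was called in either direction, although 7 had an unadjusted p under 0.05, and 0.116% of all transcripts were called lower and 0.0979% higher. The comparisons of MUT, GcKO and AmcKO with WT share the 3 WT libraries. Groups without overlap were common. Of all transcripts, 16.9% had every MUT library below every WT library and 20.2% above, beside 12 and 9 of the 49. The shares were 16% and 18.2% in GcKO (11 and 6 of the 49) and 8.61% and 9.22% in AmcKO (4 and 2). FPKM is scaled for library size and does not measure the amount of RNA in a pool. Whether pools differed in intact oocytes or in RNA per oocyte was therefore not tested, and these bulk libraries cannot tell the 2 apart.

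The same calls read differently once the level of the transcripts is taken into account. Of the 882 transcripts with a mean of at least 100 FPKM, 68.1% fell in MUT and 71% in GcKO, and the redox transcripts of that range gave 6 of 8 and 5 of 8. The median log2 fold change of these 8 was -0.943 in MUT and -0.839 in GcKO, beside -0.813 and -0.865 over the 882. Under 100 FPKM, 4 of 41 redox transcripts fell and 2 rose in MUT, where 6.45% of all transcripts of this range fell and 10% rose. In GcKO 4 fell and 3 rose, beside 6.38% and 9.3%. The fall of Glrx, Prdx1, Prdx2, Sod1 and Mgst3 thus stood among abundant transcripts that mostly fell, while Txnip in MUT was 1 of 23 transcripts in that range called higher (2.61%).

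**Figure D2:**
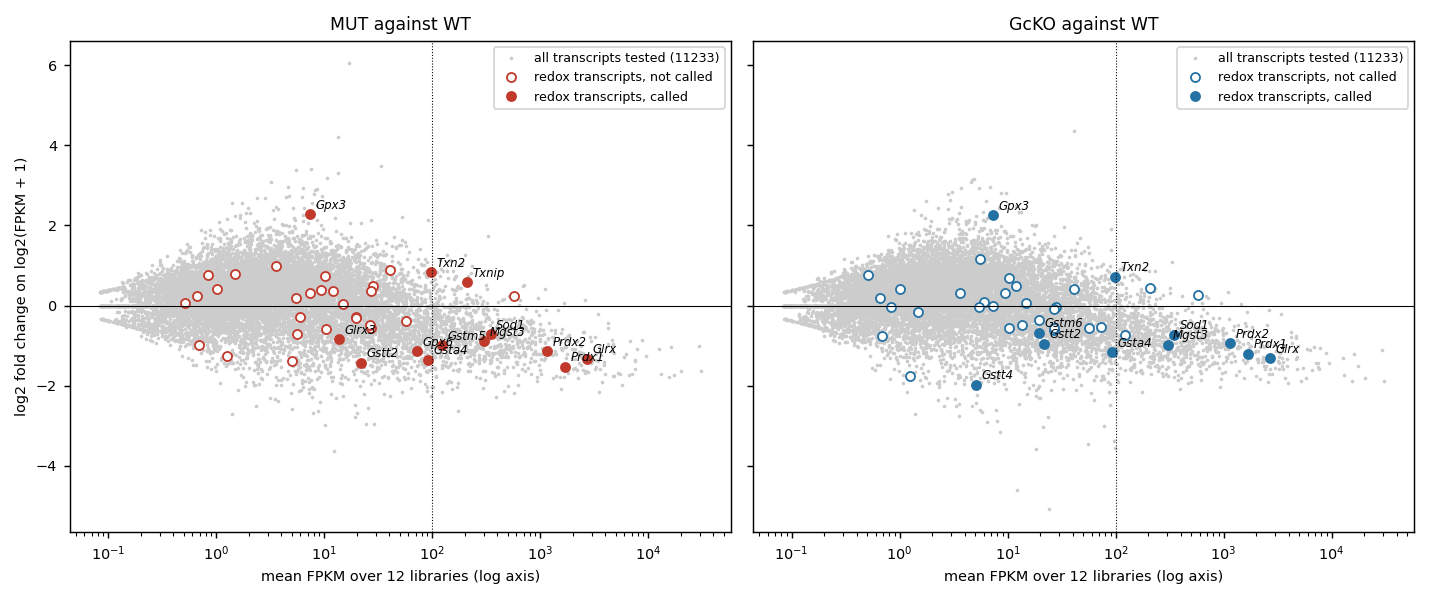
Log2 fold change against WT on log2(FPKM + 1) plotted over the mean FPKM of the 12 libraries (log axis) for MUT (left) and GcKO (right); grey points are all 11233 transcripts, coloured circles the 40 redox transcripts above 0 in at least 1 WT library, filled where called, and the dotted line marks 100 FPKM. Right of that line the cloud of all transcripts lies mostly below 0, where Glrx, Prdx1, Prdx2, Sod1 and Mgst3 also lie, and Txnip stands above 0 in MUT at 0.59.

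Thioredoxin system. Txn2 and Txnip rose, and cytosolic Txn1 was not called on the deposited scale but was higher in MUT under equal FPKM sums. Txn2, the mitochondrial thioredoxin, measured 61.7, 73.2 and 56.6 FPKM in WT, 119.7, 115 and 107 in MUT, 96.3, 117 and 103 in GcKO and 129.9, 82.8 and 116 in AmcKO. All 9 libraries of the other groups lay above the highest WT library. It rose in MUT by 0.83 ± 0.18 (adjusted p = 0.00531) and in GcKO by 0.72 ± 0.18 (adjusted p = 0.0121), a mean of 178% and 165% of WT. Against WT the fold change in AmcKO was 0.75 ± 0.18 (adjusted p = 0.0975) by limma, not called. The call in GcKO was lost without GcKO replicate 2 (adjusted p 0.0502), and that in MUT held without each library in turn and under every scaling and filter tried.

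Txnip encodes an arrestin-like protein that binds reduced thioredoxin and limits glucose uptake. Its level was 229, 163 and 148 FPKM in WT, 267, 279.8 and 252 in MUT, 240.0, 252 and 226 in GcKO and 158, 140.0 and 171 in AmcKO. Every MUT library exceeded every WT library, and GcKO overlapped WT through WT replicate 4. The rise in MUT was 0.59 ± 0.16 (adjusted p = 0.0221), the fold change in GcKO was 0.43 ± 0.16 (adjusted p = 0.0806) and that in AmcKO was -0.18 ± 0.16 (adjusted p = 0.61), and only the first of these was called. The MUT call was lost without WT replicate 5 or 6 or MUT replicate 1 or 2 (adjusted p 0.0605 to 0.0772). A fit of MUT and WT alone did not call it (adjusted p = 0.0756). Exons of Gm15441 overlap Txnip on the opposite strand, and the libraries carry no strand information, so reads of the pair cannot be separated.

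Txn1, the cytosolic and nuclear thioredoxin, was the least abundant of the 12 highest redox transcripts. It measured 47.8, 76.6 and 86.5 FPKM in WT, 60.9, 43.3 and 52 in MUT, 37.7, 47.8 and 54 in GcKO and 55.4, 69.8 and 49.3 in AmcKO. WT replicate 4 lay within the MUT and GcKO ranges, and the fold changes of -0.40 ± 0.23 (adjusted p = 0.257) in MUT and -0.56 ± 0.23 (adjusted p = 0.11) in GcKO were not called. Txnrd1, which reduces cytosolic thioredoxin, was at 4.64, 9.86 and 8.96 FPKM in WT, 12.5, 12.4 and 14.8 in MUT, 14.1, 12.6 and 11.5 in GcKO and 5.23, 8.64 and 7.40 in AmcKO. All MUT and GcKO libraries lay above WT, with fold changes of 0.74 ± 0.27 (adjusted p = 0.0674) and 0.69 ± 0.27 (adjusted p = 0.0887) by limma, neither called on the deposited scale, although both were called higher under equal FPKM sums, while Txnrd2, the mitochondrial reductase, was listed at 0 in all libraries. Txnrd3, the thioredoxin glutathione reductase known from testis, stayed under 7 FPKM.

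The thioredoxin-like transcripts Txnl4a and Txnl4b, whose products are linked to pre-mRNA splicing, did not pass the test in any of the 5 comparisons on the deposited scale, although Txnl4b was called higher in MUT under equal FPKM sums, quantile normalization and the loess correction. Txnl4b had means ± SD (n = 3) of 26.4 ± 10.0 FPKM in WT, 48.1 ± 10.1 in MUT, 34.4 ± 9.30 in GcKO and 54.6 ± 16.9 in AmcKO, and its fold change in MUT was 0.89 ± 0.30 (adjusted p = 0.0512). Txnl4a had 35 ± 1.5 FPKM in WT and 24.9 ± 3.55, 23.3 ± 1.15 and 23.7 ± 5.63 in MUT, GcKO and AmcKO, with every library of the other groups below every WT library. Its fold changes were -0.48 ± 0.19 (adjusted p = 0.0946) in MUT, -0.57 ± 0.19 (adjusted p = 0.0529) in GcKO and -0.57 ± 0.19 (adjusted p = 0.194) in AmcKO.

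Peroxiredoxins. The 2 cytosolic peroxiredoxins of high level fell in both MUT and GcKO on the deposited scale, with Prdx2 in GcKO positive under equal FPKM sums, quantile normalization and the loess correction. No other member was called on that scale, while under equal FPKM sums Prdx3 was higher in MUT and GcKO and Prdx6 in GcKO. Prdx1, a thioredoxin-dependent peroxidase, measured 2656, 2451 and 2842 FPKM in WT, 914, 874 and 958 in MUT, 957, 1105 and 1430 in GcKO and 1950, 2532 and 1728 in AmcKO. MUT and GcKO lay wholly below WT, and WT and AmcKO overlapped through AmcKO replicate 5. The level fell to 34.6% of the WT mean in MUT, with a fold change of -1.53 ± 0.17 (adjusted p = 0.000116), and to 43.9% in GcKO, with -1.20 ± 0.17 (adjusted p = 0.000416). The fold change in AmcKO was -0.37 ± 0.17 (adjusted p = 0.325). In MUT the call held without each library in turn and under every scaling and filter tried, down to -0.41 under a loess correction for abundance, whereas in GcKO it was lost under equal FPKM sums (-0.17), quantile normalization (-0.14) and the loess correction (-0.04).

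Prdx2, a second thioredoxin-dependent peroxidase of the cytosol, measured 1587, 1720 and 1660 FPKM in WT, 774, 752 and 724 in MUT, 728, 859 and 1030 in GcKO and 1282, 1602 and 1130 in AmcKO. All MUT and GcKO libraries were below WT, and AmcKO replicate 5 reached the WT range. The fold change was -1.14 ± 0.16 (adjusted p = 0.000329) in MUT, -0.94 ± 0.16 (adjusted p = 0.00119) in GcKO and, not called, -0.32 ± 0.16 (adjusted p = 0.347) in AmcKO. Under equal FPKM sums the values were -0.14 in MUT and 0.10 in GcKO, so the direction in GcKO depended on the scaling. In MUT the limma call was lost under equal FPKM sums, quantile normalization and the loess correction (adjusted p up to 0.475). Junb and Rnaseh2a overlap exons of Prdx2 on the opposite strand.

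The remaining peroxiredoxins were low. Prdx3, the mitochondrial member, had 23.9 ± 8.80 FPKM in WT, 18.2 ± 1.54 in MUT, 18.1 ± 4.41 in GcKO and 18.1 ± 2.82 in AmcKO (mean ± SD, n = 3). Prdx6, which uses glutathione in place of thioredoxin, reached 10.2 FPKM, Prdx5 was above 0 in 4 libraries and Prdx4, the member of the endoplasmic reticulum, in 1. Prdx6b was listed at 0 throughout.

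A short promoter stretch is shown for 4 redox genes because it holds the core of the antioxidant response element, the site bound by NRF2 with small MAF proteins. The core was searched as TGACNNNGC on both strands of the 250 bases before each annotated start, in RefSeq promoters of build GRCm38.p6. It was present for 8 of the 42 redox genes that could be matched (19%: Gclm, Gsta3, Gstm5, Gstm7, Mgst1, Prdx1, Sod1 and Txnrd1) and for 11.5% of 27025 genes. In the stretches below capitals mark the core, which lies on the opposite strand in all 4 and so appears as its reverse complement. It begins 133 bases before the start in Prdx1, 56 in Sod1, 92 in Txnrd1 and 134 in Gclm. For Txnrd1 this holds for the start whose 250-base window begins at 82858956, and the windows of its other annotated starts lack the core.
Prdx1, chr4:116685440-116685499, + strand: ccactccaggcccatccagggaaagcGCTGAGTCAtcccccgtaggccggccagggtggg
Sod1, chr16:90220680-90220739, + strand: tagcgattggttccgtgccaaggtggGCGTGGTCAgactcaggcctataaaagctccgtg
Txnrd1, chr10:82859088-82859147, + strand: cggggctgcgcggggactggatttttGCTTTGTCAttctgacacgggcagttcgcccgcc
Gclm, chr3:122245397-122245456, + strand: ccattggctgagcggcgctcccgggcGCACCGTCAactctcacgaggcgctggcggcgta
Of these 8 genes on the deposited scale, Prdx1 and Sod1 fell in MUT and GcKO, Gstm5 fell in MUT, and the other 5 were not called against WT. Prdx1 was also lower in GcKO than in AmcKO. Prdx1, Sod1 and Gstm5 have a mean of at least 100 FPKM, a range in which 68.1% of all transcripts fell in MUT and 71% in GcKO. A link between the core and these calls was not tested. Under equal FPKM sums Gclm and Txnrd1 were called higher in MUT and GcKO and Mgst1 in GcKO, and of the 3 that had fallen Prdx1 in MUT was still called lower. On that scale 4643 of all 11233 transcripts were called higher in MUT and 4767 in GcKO.

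Superoxide dismutases and catalase. Sod1, the copper and zinc enzyme of the cytosol, was high and Sod2, the manganese enzyme of mitochondria, was low. Sod1 measured 359.9, 480.0 and 484 FPKM in WT, 336, 222 and 249 in MUT, 229, 303 and 260.4 in GcKO and 404, 502 and 366 in AmcKO. The lowest WT library, replicate 4, lay above the highest MUT library by a small margin, and AmcKO overlapped WT. Its level fell, with a fold change of -0.72 ± 0.19 (adjusted p = 0.0173) in MUT and -0.73 ± 0.19 (adjusted p = 0.0156) in GcKO on the deposited scale, but the value was positive under equal FPKM sums, at 0.27 and 0.30, so its direction depended on the scaling. The calls were lost in MUT without WT replicate 5 or 6 or MUT replicate 2 or 3 (adjusted p 0.0661 to 0.0867) and in GcKO without WT replicate 5 or 6 or GcKO replicate 1 (adjusted p 0.0628 to 0.0713). Sod2 had 8 ± 0.534 FPKM in WT, 10.8 ± 1.65 in MUT, 10.2 ± 2.16 in GcKO and 8.53 ± 1.85 in AmcKO and was not called. On the fits of 2 groups alone the Sod1 calls were lost (adjusted p = 0.0647 in MUT and 0.0542 in GcKO), and under equal FPKM sums Sod2 was called higher in both. Extracellular Sod3 was listed at 0, and Cat reached 0.662 FPKM in its highest library.

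Glutathione peroxidases. Gpx6 fell in MUT and Gpx3 rose in MUT and GcKO, and Gpx1 and Gpx4 were not called. Gpx3, the selenoenzyme secreted into plasma, measured 5, 1.41 and 0 FPKM in WT, 11.6, 8.07 and 13.6 in MUT, 10.3, 14.5 and 8.03 in GcKO and 6.42, 3.80 and 5.21 in AmcKO. Every MUT and GcKO library lay above every WT library, and the WT libraries themselves ranged down to a listed 0. The fold change was 2.28 ± 0.49 (adjusted p = 0.00525) in MUT and 2.25 ± 0.49 (adjusted p = 0.00563) in GcKO, and 1.31 ± 0.49 (adjusted p = 0.23) in AmcKO, not called. In fits of 2 groups alone neither Gpx3 call held (adjusted p = 0.0816 in MUT and 0.102 in GcKO). Gpx6, a paralogue known from olfactory epithelium, measured 101, 83.5 and 102 FPKM in WT, 34.1, 46.8 and 48.2 in MUT, 47.1, 64.9 and 88 in GcKO and 90.0, 91.1 and 76.5 in AmcKO. In MUT it fell, with a fold change of -1.14 ± 0.22 (adjusted p = 0.00241), with no overlap with WT, whereas GcKO replicate 3 lay in the WT range and the fold change there, -0.55 ± 0.22 (adjusted p = 0.0911), was not called. Under equal FPKM sums the MUT fall was not called, at -0.16 (adjusted p = 0.482), and Gpx6 was called higher in GcKO, at 0.48 (adjusted p = 0.0374). Between GcKO and MUT the difference in Gpx6 was 0.59 ± 0.22 (adjusted p = 0.528), so a difference between these genotypes was not shown.

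Gpx4, which reduces lipid hydroperoxides in membranes, had 30.9 ± 10.8 FPKM in WT, 20.6 ± 6.94 in MUT, 20.1 ± 7.23 in GcKO and 35.9 ± 3.38 in AmcKO. Of its 150-base stretches 17.4% also occur in the pseudogene Gpx4-ps2, and the table lists it over 672 kb, so its values are uncertain. Gpx1, the common cytosolic enzyme, had means between 14.4 ± 2.78 FPKM in MUT and 15.2 ± 7.94 in AmcKO. Gpx7 and Gpx8, peroxidases of the endoplasmic reticulum, were listed at 0 in all WT libraries and reached 2.13 and 2.19 FPKM elsewhere.

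Glutaredoxins. Glrx, the cytosolic glutaredoxin that removes glutathione from proteins, was the most abundant redox transcript and ranked 55 of 11233 by mean FPKM. It measured 4234, 3989 and 3781 FPKM in WT, 1544, 1613 and 1605 in MUT, 1159, 1749 and 2016 in GcKO and 3565, 3956 and 3131 in AmcKO. MUT and GcKO lay wholly below WT, and WT and AmcKO overlapped. The level fell to 39.7% of the WT mean in MUT and 41% in GcKO, with fold changes of -1.33 ± 0.18 (adjusted p = 0.000297) and -1.32 ± 0.18 (adjusted p = 0.000307). In AmcKO it was -0.18 ± 0.18 (adjusted p = 0.663). No single library decided either call, but both were lost under quantile normalization, with -0.08 in MUT and -0.08 in GcKO.

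Glrx5, a mitochondrial glutaredoxin of iron-sulphur cluster assembly, measured 566, 511 and 499 FPKM in WT, 582, 713 and 561 in MUT, 642, 659 and 576 in GcKO and 457, 480.5 and 646 in AmcKO. It was not called lower, with fold changes of 0.23 ± 0.16 (adjusted p = 0.329) in MUT, 0.25 ± 0.16 (adjusted p = 0.287) in GcKO and -0.01 ± 0.16 (adjusted p = 1) in AmcKO, none called. Under quantile normalization it was called higher, at 1.10 in MUT and 1.20 in GcKO. Glrx3, a multidomain glutaredoxin that handles iron-sulphur clusters in the cytosol, measured 13.5, 24.2 and 13.1 FPKM in WT, 10.4, 8.21 and 7.57 in MUT, 12.9, 9.53 and 11.6 in GcKO and 15.2, 21.2 and 15.8 in AmcKO. It fell in MUT, with a fold change of -0.84 ± 0.26 (adjusted p = 0.0328) on the deposited scale and stood at 0.08 under equal FPKM sums, and its call was lost without WT replicate 5 or MUT replicate 2 or 3 (adjusted p 0.0948 to 0.112). The value in GcKO was -0.49 ± 0.26 (adjusted p = 0.196), not called, and 6.52% of its 150-base stretches recur in Gm12669. A fit of MUT and WT alone did not call Glrx3 (adjusted p = 0.101). Glrx2 stayed at or under 1.27 FPKM.

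Glutathione synthesis and reduction. Transcripts of these enzymes were scarce and none of the 4 was called in any comparison on the deposited scale, whereas under equal FPKM sums Gclm and Gsr were called higher in MUT, Gclm and Gss in GcKO, and Gclm and Gss in GcKO against AmcKO. Gclm, the modifier subunit of the rate-limiting ligase, had 10.2 ± 3.75 FPKM in WT, 13 ± 1.63 in MUT, 14.4 ± 3.54 in GcKO and 10.4 ± 0.879 in AmcKO. The catalytic subunit Gclc reached 2.03 FPKM, glutathione synthetase Gss 1.92 FPKM and glutathione reductase Gsr 2.35 FPKM in their highest library. The median log2 fold change of the 4 was 0.385 in MUT and 0.453 in GcKO, beside 0.121 and 0.12 over all transcripts.

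Glutathione S-transferases. Of 19 members detected, 4 fell and none rose in MUT, where 11.3% of all transcripts fell and 9.46% rose, and 5 fell and 1 rose in GcKO, beside 11.4% and 8.71%, with the direction of Mgst3, Gstm5, Gstm6 and, in GcKO, Gstt2 turning positive under equal FPKM sums. Mgst3, a microsomal enzyme with transferase and peroxidase activity, measured 401, 434 and 387 FPKM in WT, 217, 222 and 214 in MUT, 148, 246 and 238 in GcKO and 317, 479 and 335 in AmcKO. MUT and GcKO lay below WT and AmcKO spanned it. The fold change was -0.90 ± 0.20 (adjusted p = 0.00638) in MUT and -0.98 ± 0.20 (adjusted p = 0.00371) in GcKO, and 0.10 and 0.05 under equal FPKM sums. Gsta4, which conjugates the lipid peroxidation product 4-hydroxynonenal, measured 151, 155 and 152 FPKM in WT, 49.1, 57.1 and 74.3 in MUT, 61.1, 63.8 and 78.8 in GcKO and 75.9, 112 and 75 in AmcKO. The 3 WT libraries were close together, and every library of the other groups was below them. It fell, with a fold change of -1.35 ± 0.20 (adjusted p = 0.000413) in MUT and -1.17 ± 0.20 (adjusted p = 0.00106) in GcKO, and the value in AmcKO, -0.82 ± 0.20 (adjusted p = 0.1), was not called. The fall was also called under quantile normalization, at -0.87 and -0.64, and not under equal FPKM sums, at -0.36 and -0.14.

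Gstm5, a mu-class transferase, measured 154, 174 and 216 FPKM in WT, 92.8, 71.8 and 110.1 in MUT, 70.5, 109.6 and 159.5 in GcKO and 90.8, 124 and 102 in AmcKO. It fell in MUT, with a fold change of -0.99 ± 0.26 (adjusted p = 0.0164), with -0.74 ± 0.26 (adjusted p = 0.0594) in GcKO and -0.78 ± 0.26 (adjusted p = 0.191) in AmcKO not called, and the MUT call was lost without WT replicate 5 or 6 or MUT replicate 1 or 2 (adjusted p 0.0508 to 0.0897). Exons of 4933431E20Rik overlap it on the opposite strand. Gstm6, of the same class, measured 19.4, 29.8 and 22.1 FPKM in WT, 20.3, 17.5 and 19.3 in MUT, 12.3, 12.9 and 18.1 in GcKO and 20.4, 23.7 and 18.5 in AmcKO. Its call in GcKO, -0.68 ± 0.21 (adjusted p = 0.0394), was lost without WT replicate 5 or 6, MUT replicate 1 or GcKO replicate 1 or 2 (adjusted p 0.0509 to 0.13), and the value in MUT was -0.28 ± 0.21 (adjusted p = 0.374). Under equal FPKM sums Gstm6 was called higher in MUT.

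Gstt2 and Gstt4 belong to the theta class. Gstt2 measured 34, 27.2 and 37 FPKM in WT, 10.5, 9.16 and 15.5 in MUT, 15.7, 13.1 and 21 in GcKO and 26.4, 33.7 and 17 in AmcKO. MUT and GcKO did not overlap WT, and AmcKO did. The fold change was -1.43 ± 0.27 (adjusted p = 0.00241) in MUT and -0.95 ± 0.27 (adjusted p = 0.0242) in GcKO, the latter call being lost without WT replicate 4 or 6 or GcKO replicate 1 or 2 (adjusted p 0.0753 to 0.101). Gstt4 measured 11.2, 7.61 and 10.8 FPKM in WT, 2.08, 2.94 and 4.70 in MUT, 2.77, 0 and 4.36 in GcKO and 4.36, 4.15 and 5.93 in AmcKO. All 9 libraries of the other groups lay below WT, with -1.39 ± 0.49 (adjusted p = 0.0606) in MUT, not called, and -1.98 ± 0.49 (adjusted p = 0.0116) in GcKO, where the call was lost without WT replicate 4 or 6 (adjusted p 0.0522 to 0.0564). Fits of 2 groups alone called neither Gstm6 (adjusted p = 0.124) nor Gstt4 (adjusted p = 0.127) in GcKO, and Gstt4 was called lower in MUT under quantile normalization and the loess correction.

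Gsta2, an alpha-class transferase, was listed at 0 in all WT libraries and measured 0, 0 and 0 FPKM in WT, 0, 4.65 and 0 in MUT, 1.09, 3.09 and 5.15 in GcKO and 3.44, 4.92 and 5.62 in AmcKO. It was called higher in GcKO (limma adjusted p = 0.0322), and the call was lost without WT replicate 4 or 5 or 6, GcKO replicate 2 or 3 or AmcKO replicate 4 or 5 or 6 (adjusted p 0.0561 to 0.13). In AmcKO every library was also above WT, without a call (limma adjusted p = 0.0972). Between GcKO and AmcKO the difference was -0.58 ± 0.58 (limma adjusted p = 0.639), not called. No fold is given against a group at 0, and 19.6% of its 150-base stretches are shared with Gsta1, Gm10639 or Gm3776. The pi-class pair Gstp1 and Gstp2 share 17.6% and 35.7% of such stretches and cannot be separated reliably. They had 25.8 ± 3.79 and 26.7 ± 8.21 FPKM in WT and 38.1 ± 14.2 and 33.8 ± 3.74 in MUT, and were not called. The other 31 redox transcripts outside the 18 described library by library had log2 fold changes of -1.27 to 1.00 in MUT and -1.75 to 1.17 in GcKO, with a smallest adjusted p of 0.0512 and 0.0529.

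**Figure D3:**
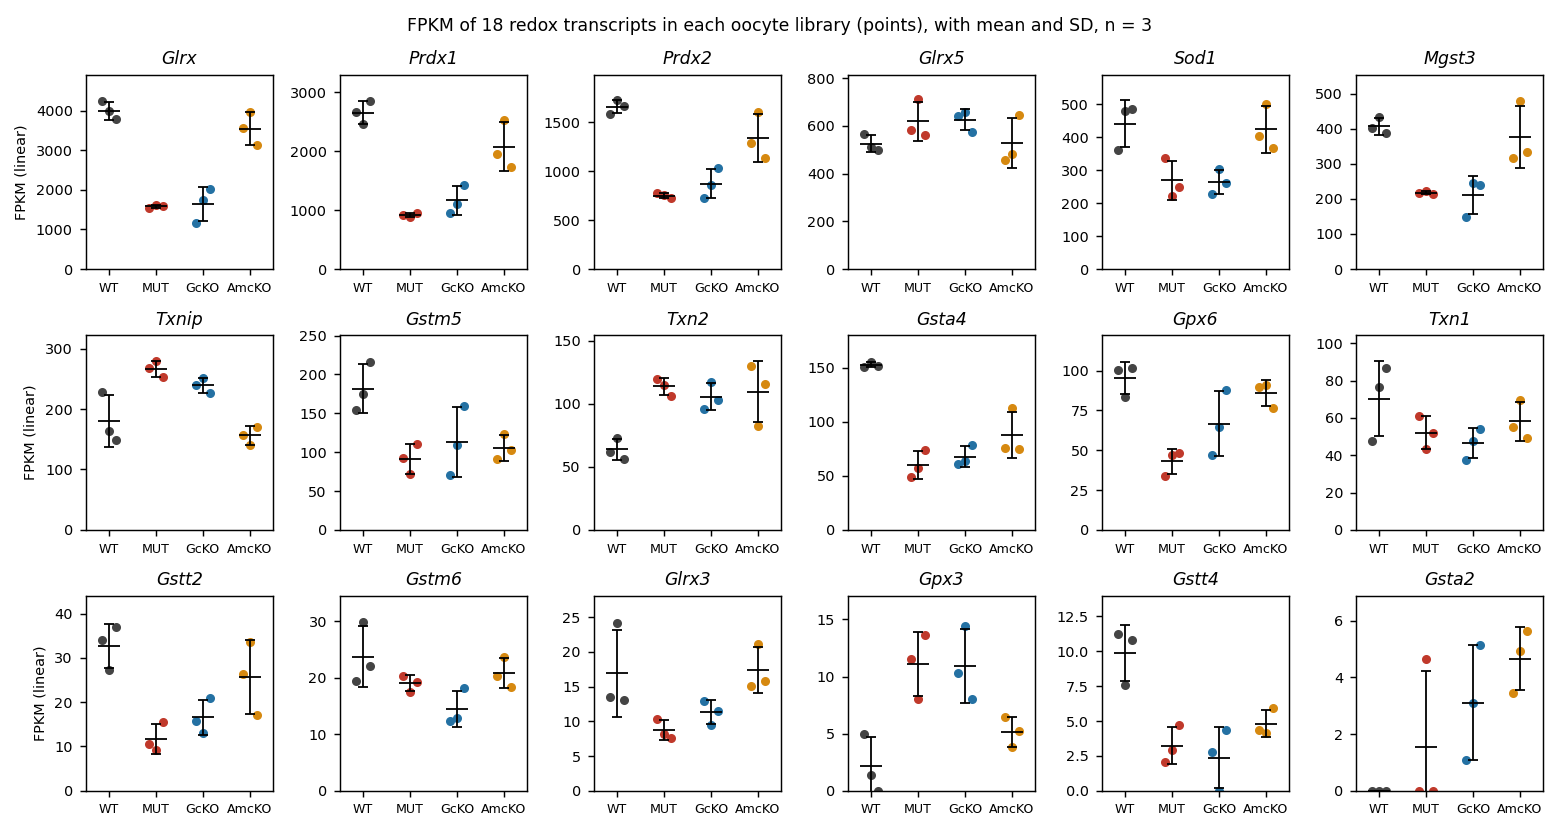
FPKM of the 18 redox transcripts described library by library, on linear axes from 0; points are libraries (3 per group), the bar is the mean and the whiskers the SD, cut at 0. On the deposited scale Glrx, Prdx1, Prdx2, Sod1, Mgst3, Gsta4, Glrx3, Gstt2 and Gstt4 show MUT and GcKO points wholly below WT, and Txn2 and Gpx3 wholly above it. Among all 11233 transcripts, 16.9% lay wholly below WT and 20.2% wholly above it in MUT, and 16% and 18.2% in GcKO.

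**Figure D4:**
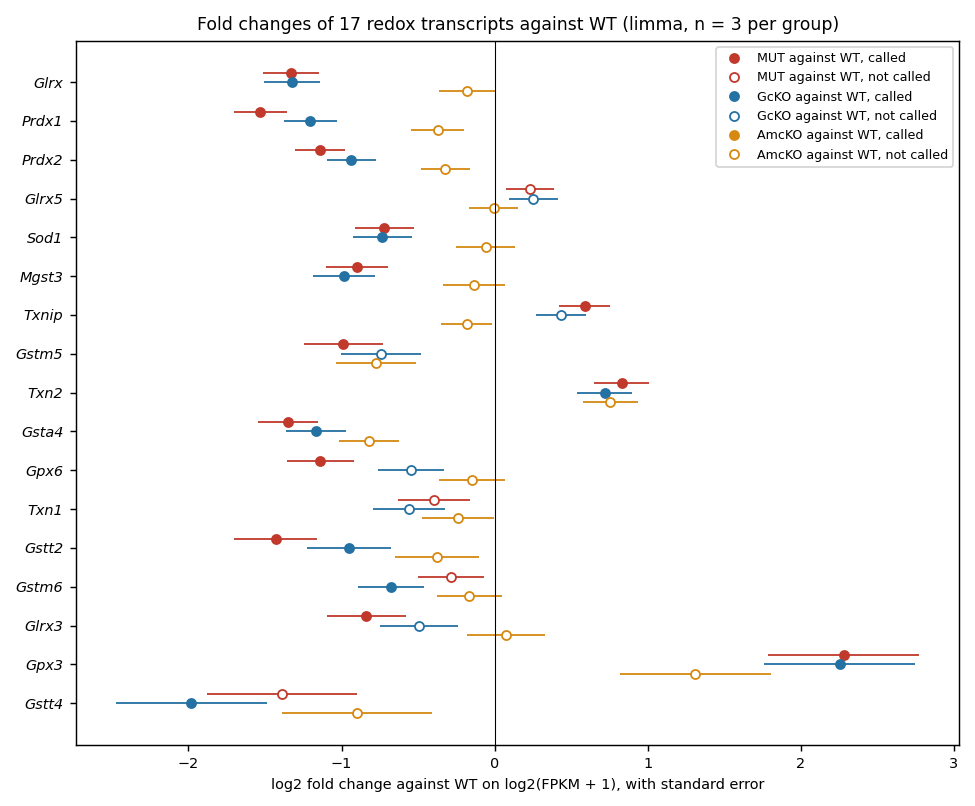
Log2 fold change against WT on log2(FPKM + 1), with standard error, for the 17 of these transcripts above 0 in WT; filled circles were called by limma. Most circles of MUT and GcKO lie left of 0 on the deposited scale, with Txn2, Txnip, Glrx5 and Gpx3 to the right, and under equal FPKM sums Sod1, Mgst3, Gstm5, Gstm6, Glrx3, Gstt2 in GcKO and Prdx2 in GcKO turn positive in at least 1 of the comparisons in which they were called; no AmcKO circle is filled.

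GcKO and AmcKO libraries were compared directly, and since they also carry different numbers, genotype and number series cannot be told apart. GcKO was lower than AmcKO for 4 redox transcripts and higher for 1, where 4.79% of all transcripts were lower and 0.668% higher. Glrx differed by -1.14 ± 0.18 (adjusted p = 0.00314), Mgst3 by -0.85 ± 0.20 (adjusted p = 0.025), Prdx1 by -0.83 ± 0.17 (adjusted p = 0.0139) and Prdx2 by -0.62 ± 0.16 (adjusted p = 0.0407), although Prdx2 was at 0.13 under equal FPKM sums, and Txnip by 0.62 ± 0.16 (adjusted p = 0.0458). For all of these the libraries of the 2 groups did not overlap. Over all 11233 transcripts, GcKO lay wholly below AmcKO for 11.6% and wholly above it for 12%. Of 882 transcripts with a mean of at least 100 FPKM, 40.2% were lower in GcKO. In a limma fit of these 2 groups alone no redox transcript, and none of the 11233 transcripts, was called, while 12 redox transcripts had an unadjusted p under 0.05. Txn2 gave -0.03 ± 0.18 (adjusted p = 0.97) and Gsta4 -0.35 ± 0.20 (adjusted p = 0.374), neither called on the deposited scale, and Txn2 was called higher under equal FPKM sums. Under quantile normalization and under the loess correction no redox transcript was called lower in GcKO than in AmcKO, Glrx standing at -0.27 and -0.26 (adjusted p = 0.109 in each), and Glrx5 and Txnip were called higher.

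The calls rested on single libraries to different degrees. Glrx was called on the deposited scale without each library in turn. The Mgst3 call was lost without WT replicate 4, MUT replicate 1 or 2 or 3, GcKO replicate 1 or AmcKO replicate 4 or 5 (adjusted p 0.0522 to 0.11), the Prdx1 call without GcKO replicate 1 or 2 or AmcKO replicate 4 or 5 (adjusted p 0.0536 to 0.0633), the Prdx2 call without WT replicate 4 or 5 or 6, MUT replicate 1 or 2 or 3, GcKO replicate 1 or 2 or AmcKO replicate 4 or 5 (adjusted p 0.0606 to 0.126) and the Txnip call without WT replicate 5, MUT replicate 1 or 2 or 3, GcKO replicate 1 or 2 or 3 or AmcKO replicate 4 or 5 or 6 (adjusted p 0.0549 to 0.138).

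Whole-body mutation and oocyte knockout were also compared. No redox transcript was called between GcKO and MUT, 3 had an unadjusted p under 0.05, and 0.205% of all transcripts were called. Both were compared with the same WT libraries, and their values stand side by side above for each transcript.

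The scaling of the libraries set many of these values. When every library was brought to the same FPKM sum, the median log2 fold change over all 11233 transcripts became 0.715 in MUT, in place of 0.121, and 0.743 in GcKO, in place of 0.12. On that scale 2 redox transcripts fell in MUT (Glrx and Prdx1) and 17 rose, and in GcKO 1 fell (Glrx) and 17 rose, while of all tested 251 fell and 4643 rose in MUT and 240 fell and 4767 rose in GcKO. The higher calls in both were Gclm, Glrx5, Gpx3, Gpx7, Gstp1, Gstp2, Prdx3, Sod2, Txn2, Txnip, Txnl4b and Txnrd1, with Gsr, Gstm2, Gstm6, Txn1 and Txnrd3 in MUT and Gpx6, Gss, Gsta2, Mgst1 and Prdx6 in GcKO. Relative to that median Glrx stood at -1.05 and Prdx1 at -1.25 in MUT, and Txn2 at 1.10. Txn2, Txnip, Gpx3 and Glrx5 were called higher in MUT and GcKO under equal FPKM sums, quantile normalization and the loess correction alike.

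**Figure D5:**
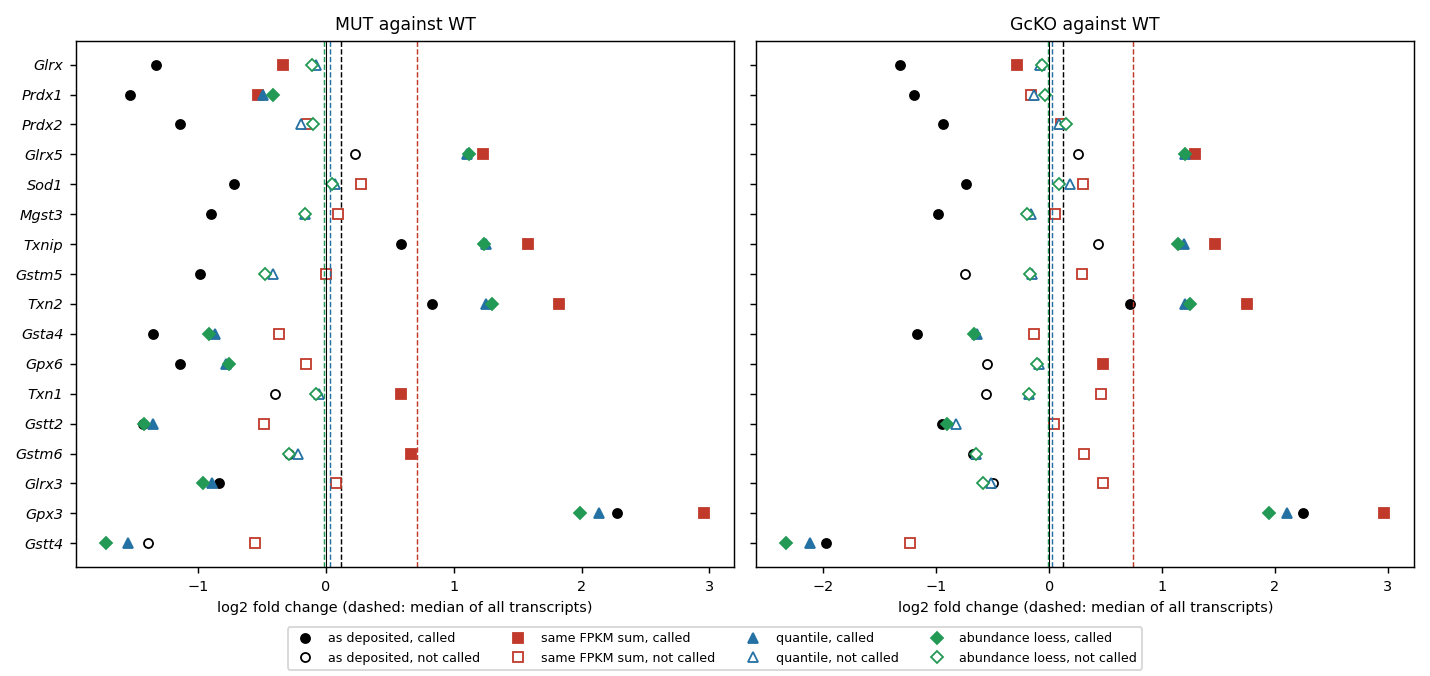
Log2 fold change of 17 redox transcripts in MUT (left) and GcKO (right) against WT under the deposited scale, equal FPKM sums, quantile normalization and a loess correction for abundance; filled symbols were called, and dashed lines of the same colour mark the median of all transcripts. Txn2, Txnip, Gpx3 and Glrx5 lie right of 0 under each scale, and Glrx moves from -1.33 in MUT as deposited to -0.08 under quantile normalization.

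Related pathways were read from gene lists in the same fit. Across them, 12 transcripts fell and 13 rose in MUT on the deposited scale, and 13 fell and 11 rose in GcKO. Of all transcripts tested, 11.3% fell and 9.46% rose in MUT, 11.4% fell and 8.71% rose in GcKO, and the median fold change was 0.121 and 0.12. Under equal FPKM sums all 13 and 11 rises were called again, whereas 3 of 12 and 1 of 13 falls were, and 6 falls in MUT and 7 in GcKO turned positive. On that scale 4643 of all 11233 transcripts were called higher in MUT and 4767 in GcKO. The median over all transcripts was 0.715 and 0.743 there, so a kept rise is no separate check of it.

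Of 13 NADPH-supply transcripts tested, 4 rose and none fell in MUT, and 3 rose and 1 fell in GcKO. All transcripts gave 11.3% lower and 9.46% higher in MUT and 11.4% and 8.71% in GcKO, and the median fold change of the list was 0.315 and 0.25. The malic enzymes Me1 and Me2 and the NAD kinase Nadk rose in both groups. Nadk measured 2.92, 1.99 and 1.14 FPKM in WT, 6.49, 6.97 and 8.73 in MUT, 6.96, 4.11 and 4.86 in GcKO and 6.47, 3.17 and 4.94 in AmcKO, with fold changes of 1.51 ± 0.32 (adjusted p = 0.0043) in MUT and 1.08 ± 0.32 (adjusted p = 0.0266) in GcKO. Idh1, a cytosolic source of NADPH, fell in GcKO, with a fold change of -1.14 ± 0.29 (adjusted p = 0.0146), and Mthfd2, a mitochondrial folate enzyme, rose in MUT by 0.66 ± 0.17 (adjusted p = 0.0161). In MUT the calls were lost for Me1 without WT replicate 5 or 6 or MUT replicate 2 or 3 (adjusted p up to 0.0605), for Me2 without WT replicate 4 or 6 or MUT replicate 2 or 3 (adjusted p up to 0.0806) and for Mthfd2 without WT replicate 5 or MUT replicate 2 (adjusted p up to 0.0638). In GcKO they were lost for Me1 without WT replicate 5 or 6, MUT replicate 1 or 2 or 3 or GcKO replicate 1 or 2 (adjusted p up to 0.123), for Nadk without WT replicate 5 or 6 or GcKO replicate 1 (adjusted p up to 0.116) and for Idh1 without WT replicate 4 or GcKO replicate 3 (adjusted p up to 0.0559).

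Of 15 NRF2-pathway transcripts, 2 fell and 3 rose in MUT, and 2 fell and 2 rose in GcKO. The shares over all transcripts were 11.3% lower and 9.46% higher in MUT and 11.4% and 8.71% in GcKO, and the list had a median of 0.209 and 0.382. Rbx1, a subunit of the KEAP1 ubiquitin ligase, measured 172, 206 and 211 FPKM in WT, 84.7, 71.5 and 54.3 in MUT, 62.5, 85 and 91.1 in GcKO and 136, 169 and 120.1 in AmcKO, and fell, with a fold change of -1.49 ± 0.20 (adjusted p = 0.000275) in MUT and -1.31 ± 0.20 (adjusted p = 0.000636) in GcKO, with -0.50 and -0.28 under equal FPKM sums. The ferritin subunits moved apart in MUT, where heavy-chain Fth1 fell, with a fold change of -1.17 ± 0.22 (adjusted p = 0.00237) and light-chain Ftl1 rose by 0.84 ± 0.21 (adjusted p = 0.0126). Fth1 also fell in GcKO on the deposited scale,, with a fold change of -0.94 ± 0.22 (adjusted p = 0.00924), and was at 0.10 under equal FPKM sums. The Ftl1 call was lost without WT replicate 6 or MUT replicate 2 or 3 (adjusted p up to 0.0633). Mafg, a small MAF partner of NRF2, was listed at 0 in all WT libraries and was called higher in MUT, at 1.96 to 4.15 FPKM, and in GcKO, at 2.82 to 3.08 FPKM. In AmcKO it measured 0.733 to 2.38 FPKM and was not called (limma adjusted p = 0.0972). Slc3a2, a subunit of amino acid transporters, rose in MUT by 1.63 ± 0.26 (adjusted p = 0.000847), and the transporter Abcc4 rose in GcKO by 1.02 ± 0.32 (adjusted p = 0.0374), a call lost without WT replicate 4 or 6 or GcKO replicate 1 or 2 (adjusted p up to 0.142). By limma Abcc4 stood at 0.89 ± 0.32 (adjusted p = 0.0642) in MUT and 1.04 ± 0.32 (adjusted p = 0.162) in AmcKO, neither called.

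Among 15 glutathione-linked transcripts, 2 fell and 3 rose in MUT, 3 fell and 2 rose in GcKO, and 1 fell in AmcKO. Over all transcripts 11.3% were lower and 9.46% higher in MUT, 11.4% and 8.71% in GcKO, and 0.116% lower in AmcKO. The median of the list was 0.041 in MUT, -0.213 in GcKO and -0.3 in AmcKO. The last was Cth, which makes cysteine by transsulphuration and measured 46.7, 55.1 and 58 FPKM in WT, 30.4, 26.5 and 29.9 in MUT, 20.4, 21.1 and 24.1 in GcKO and 20.1, 23.4 and 20.0 in AmcKO. It fell, with a fold change of -0.85 ± 0.17 (adjusted p = 0.00284) in MUT, -1.25 ± 0.17 (adjusted p = 0.000247) in GcKO and -1.29 ± 0.17 (adjusted p = 0.00434) in AmcKO, and every library of these groups was below WT, although under equal FPKM sums its value was 0.12 in MUT. Ggct, which acts on gamma-glutamyl dipeptides released from glutathione, fell, with a fold change of -1.02 ± 0.18 (adjusted p = 0.00165) in MUT and -0.92 ± 0.18 (adjusted p = 0.00326) in GcKO, and stood at -0.03 and 0.12 under equal FPKM sums. Chac1, which degrades glutathione, rose in MUT by 1.89 ± 0.44 (adjusted p = 0.00794), with 2.22 to 6.23 FPKM against 0 to 1.36 in WT, a call lost without MUT replicate 3 (adjusted p up to 0.0506).

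Among 17 thioredoxin-domain transcripts, 2 fell and 3 rose in MUT, and 2 fell and 2 rose in GcKO. These counts stand beside 11.3% lower and 9.46% higher over all transcripts in MUT and 11.4% and 8.71% in GcKO, with a list median of 0.424 and 0.348. Txndc9, a thioredoxin-like partner of the chaperonin, measured 803, 801 and 787 FPKM in WT, 346, 319 and 329 in MUT, 228, 314 and 346 in GcKO and 547, 685 and 461 in AmcKO. It fell, with a fold change of -1.26 ± 0.18 (adjusted p = 0.000308) in MUT and -1.45 ± 0.18 (adjusted p = 0.000161) in GcKO, and was also called lower under equal FPKM sums, at -0.27 and -0.41. Of the disulphide isomerases of the endoplasmic reticulum, P4hb rose by 1.49 ± 0.25 (adjusted p = 0.00112) and 1.29 ± 0.25 (adjusted p = 0.0028), Txndc5 by 1.00 ± 0.24 (adjusted p = 0.0104) and 1.29 ± 0.24 (adjusted p = 0.00226), and Pdia4 by 1.47 ± 0.41 (adjusted p = 0.021) in MUT. By limma the AmcKO values were 1.18 ± 0.25 (adjusted p = 0.0684) for P4hb, 0.84 ± 0.24 (adjusted p = 0.148) for Txndc5 and 0.15 ± 0.41 (adjusted p = 0.902) for Pdia4, none called. In MUT the Txndc5 call was lost without MUT replicate 2 (adjusted p up to 0.0555) and the Pdia4 call without WT replicate 4 or 6 or MUT replicate 1 or 2 or 3 (adjusted p up to 0.0859).

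Of 9 methionine sulphoxide reductases, sestrins and others, 2 fell in MUT, and 1 fell and 2 rose in GcKO. Among all transcripts 11.3% were lower in MUT, and 11.4% lower and 8.71% higher in GcKO, and the list median was 0.279 and 0.0864. Msra, which repairs oxidized methionine, measured 47.2, 49.5 and 45.6 FPKM in WT, 17.9, 12.4 and 11.4 in MUT, 13.2, 18.9 and 16.3 in GcKO and 25, 20.6 and 23.9 in AmcKO. It fell, with a fold change of -1.72 ± 0.20 (adjusted p = 0.000125) in MUT and -1.51 ± 0.20 (adjusted p = 0.000262) in GcKO, and was at -0.77 and -0.51 under equal FPKM sums, the latter not called.

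Of 13 transcripts for selenoproteins and their synthesis, 4 fell and none rose in each of MUT and GcKO on the deposited scale, while under equal FPKM sums Sephs2, Sepsecs and, in MUT, Selk or, in GcKO, Sepw1 were positive, and Sephs2 (0.47) and Selk (0.40) were called higher in MUT. Over all transcripts 11.3% fell in MUT and 11.4% in GcKO, and among those with a mean of at least 100 FPKM 68.1% and 71%. The list had a median of 0.129 in MUT and 0.138 in GcKO. Sepw1, a small selenoprotein, measured 1172, 1416 and 1106 FPKM in WT, 574, 508 and 526 in MUT, 497, 578 and 757 in GcKO and 1114, 1180 and 1046 in AmcKO, and fell, with a fold change of -1.19 ± 0.16 (adjusted p = 0.000293) in MUT and -1.02 ± 0.16 (adjusted p = 0.000748) in GcKO. Sephs2 and Sepsecs, which supply selenophosphate and selenocysteine for proteins such as Gpx3 and Txnrd1, fell, with a fold change of -0.51 ± 0.17 (adjusted p = 0.0479) and -0.71 ± 0.20 (adjusted p = 0.0222) in MUT and by -0.78 ± 0.17 (adjusted p = 0.00604) and -0.95 ± 0.20 (adjusted p = 0.00434) in GcKO. Selk, a selenoprotein of the endoplasmic reticulum, fell, with a fold change of -0.59 ± 0.18 (adjusted p = 0.0303) in MUT and -1.16 ± 0.18 (adjusted p = 0.000599) in GcKO. In MUT the calls were lost for Sephs2 without WT replicate 4 or 5 or 6, MUT replicate 1 or 2 or 3, GcKO replicate 2 or 3 or AmcKO replicate 4 (adjusted p up to 0.121), for Sepsecs without WT replicate 5 or 6 or MUT replicate 2 or 3 (adjusted p up to 0.0787) and for Selk without WT replicate 4 or 5 or 6 or MUT replicate 1 or 2 or 3 (adjusted p up to 0.111).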

How the data were processed

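RNA of pooled oocytes was amplified by Smart-seq2, which does not mark strand, and sequenced as paired reads on an Illumina instrument. According to the submitters' processing notes, reads were aligned to mm10 with TopHat2 2.0.13 and the deposited FPKM values came from Cufflinks 2.2.1; the authors normalized them across libraries with Cuffnorm, and the annotation is not given in the sources used here. No read counts were used, so the depth of each library is unknown and no counting interval is given. Columns with the authors' own comparisons were not used.

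The members are the rows whose symbol matches the named families. Members, lists and tests were chosen with earlier results of these data known. Transcripts with at least 1 FPKM in at least 1 of 12 libraries (11233) entered limma 3.58.1 in R 4.3.3 with an intensity trend, on log2(FPKM + 1), with all 4 groups in 1 fit and 8 residual degrees of freedom. The fit was checked on simulated data. P-values were adjusted over all transcripts of a comparison by Benjamini-Hochberg, and called under 0.05. Library values were given for the 12 members of highest mean and for each member called in any of 5 comparisons. Alternatives were a pseudocount of 0.1, no filter, a mean of at least 5 FPKM, equal FPKM sums, median of ratios, quantile normalization, 2 groups alone, a replicate block, and leaving out each library; the loess correction for abundance was added after seeing the data. Promoters came from RefSeq for GRCm38.p6, the build also called mm10, and 150-base stretches from GENCODE transcripts of the same build.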

Additional observations from a re-analysis of the deposited data

Results flagged for a closer look

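For 5 redox transcripts the limma test of GcKO against AmcKO found a difference on the deposited scale. The WT values cancel from the difference itself but enter the estimate of the spread, which all 4 groups share. The difference on log2(FPKM + 1) was -1.14 for Glrx, -0.85 for Mgst3, -0.83 for Prdx1, -0.62 for Prdx2 and 0.62 for Txnip. GcKO libraries are numbered 1 to 3 and AmcKO libraries 4 to 6, so genotype and number series cannot be told apart. The limma fit of the 2 groups alone called none of the 5, with adjusted p of 0.154 for Glrx, 0.206 for Mgst3, 0.178 for Prdx1, 0.218 for Prdx2 and 0.135 for Txnip. Under equal FPKM sums Glrx was called at -0.40, Prdx2 stood at 0.13, and Mgst3 and Prdx1 were not called at -0.11 and -0.09. Under quantile normalization and the loess correction none of the 4 lower calls was left, with Glrx at -0.27 and -0.26 (adjusted p = 0.109 in each), while Txnip was called higher under all 3 of these scalings.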

How the results depend on the processing

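Calls depended on how libraries were scaled and on which groups shared a fit. The pseudocount of 0.1 and median-of-ratios scaling kept the direction and call of all 30 results for named transcripts; equal FPKM sums kept 11 and reversed 10, quantile normalization kept 13 and reversed 4, and the loess correction, chosen after seeing the data, kept 14 and reversed 4. Fits of 2 groups alone kept 17 and lost 13 calls, namely all 5 between GcKO and AmcKO, Glrx3, Gpx3, Sod1 and Txnip in MUT, and Gpx3, Gstm6, Gstt4 and Sod1 in GcKO, and over all transcripts in GcKO they gave 838 lower and 410 higher in place of 1286 and 978. The cause was not tested.

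Under equal FPKM sums, 2 members were lower and 17 higher in MUT, 1 lower and 17 higher in GcKO, and 13 were called between GcKO and AmcKO (1 lower, 12 higher, against 4 and 1 as deposited). Of all 11233 transcripts on that scale, 251 were lower and 4643 higher in MUT, and 240 and 4767 in GcKO. Between GcKO and AmcKO 128 were lower and 2463 higher, so the many higher calls were not particular to the redox members. Quantile normalization gave 6 lower and 5 higher in MUT, 2 lower and 4 higher in GcKO, and 2 between GcKO and AmcKO, both higher. Over all 11233 transcripts it gave 720 lower and 753 higher in MUT, 665 and 691 in GcKO, and 161 and 89 between GcKO and AmcKO. The loess correction gave 6 lower and 5 higher in MUT, 3 lower and 4 higher in GcKO, and 2 between GcKO and AmcKO, both higher. The counts over all transcripts were 842 lower and 709 higher in MUT, 799 and 653 in GcKO, and 146 and 80 between GcKO and AmcKO. A mean of at least 5 FPKM gave 5 higher in MUT, among 32 members tested, beside 760 higher among all 4759 transcripts tested. No filter gave 3 calls between GcKO and AmcKO, all lower, beside 450 lower and 70 higher among 14933 transcripts. Fits of 2 groups alone gave 0 there and 1 higher in AmcKO against WT, beside 0 and 19 higher among all 11233.

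Reversed under equal FPKM sums were, in MUT, Glrx3 at 0.0781, Gstm5 at 0.00197, Mgst3 at 0.096 and Sod1 at 0.27; in GcKO, Gstm6 at 0.31, Gstt2 at 0.0419, Mgst3 at 0.0526, Prdx2 at 0.10 and Sod1 at 0.30; and between GcKO and AmcKO, Prdx2 at 0.13. Gpx6 in GcKO, not called as deposited, was called higher at 0.48. Quantile normalization reversed Sod1 at 0.0734 in MUT and 0.18 in GcKO, and Prdx2 at 0.0831 in GcKO and 0.0714 between GcKO and AmcKO. The loess correction reversed Sod1 at 0.0495 in MUT and 0.0892 in GcKO, and Prdx2 at 0.15 in GcKO and 0.14 between GcKO and AmcKO.

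Leaving out each library in turn gave 7 to 11 lower and 2 to 4 higher members in MUT, 5 to 11 lower and 1 to 3 higher in GcKO, 0 to 1 lower and 0 to 1 higher in AmcKO, 0 between GcKO and MUT, and 1 to 4 between GcKO and AmcKO, where 5 were called with all libraries. Over all transcripts the same fits gave 926 to 1322 lower and 523 to 1101 higher in MUT. In GcKO they gave 941 to 1324 lower and 409 to 1020 higher. The 5 lower calls in GcKO came without WT replicate 6, the 1 higher call without GcKO replicate 2, and the calls in AmcKO without AmcKO replicate 5 (1 lower, 1 higher) or MUT replicate 2 (1 higher). Between GcKO and AmcKO the count was 1 without GcKO replicate 1, AmcKO replicate 4 or AmcKO replicate 5, 2 without GcKO replicate 2 or MUT replicate 1, 2 or 3, and 3 without WT replicate 4 or 5.

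Same-numbered libraries of AmcKO and WT, and of GcKO and MUT, had deviations that correlated at -0.0413 to 0.0405, and not every library correlated best with its own number. So few pairs cannot show whether same-numbered libraries share more than a number. With the replicate block 0 members were called in either pair, as without it. No paired analysis was possible for the other comparisons because the groups compared share no number. Without read counts, precision at low FPKM is unknown.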
